A study of Mus musculus with 4 samples.

Results

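The TGF-beta ligands, receptors and latent binding proteins were described as a set of 10 genes, listed by name with earlier results of these data known. They are Tgfb1, Tgfb2 and Tgfb3, Tgfbr1, Tgfbr2 and Tgfbr3, and Ltbp1, Ltbp2, Ltbp3 and Ltbp4. All 10 were found among the 25909 genes with a transcript in the deposited table, of which 20804 were protein-coding, and together they have 26 of its 63759 transcripts. Strand-specific RNA-seq of total RNA was performed on mouse embryonic fibroblasts (MEF), cells cultured from whole embryos, here C57BL/6 embryos of embryonic day 15.5 that were wild type (Hmga2+/+) or lacked Hmga2 (Hmga2-/-). HMGA2 is a DNA-binding high mobility group protein, and the study asked how far transcription induced by TGFB1 requires it. The cells of both genotypes had been immortalized with simian virus 40, so that all 4 conditions are of immortalized lines and none of primary cells, and all were starved overnight in medium with 1% fetal calf serum. The Ctrl cells then received water and the TGFB1 cells 10 ng/ml of human recombinant TGFB1 for 24 h, which gave 4 conditions with 1 library each. The methods mention duplicates, but the table has 1 column per condition, so the spread between cultures is unknown, and no p-value, standard error or test of a condition can be given.

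TGF-beta is made as a precursor whose propeptide stays folded around the mature growth factor and keeps it latent. In the cell the propeptide is joined by disulfide bonds to a latent TGF-beta binding protein (LTBP), a fibrillin-like matrix protein that carries the latent complex into the extracellular matrix, and integrins or proteases later release the active ligand. The free ligand binds the type II receptor kinase TGFBR2, which phosphorylates the type I receptor kinase TGFBR1, and TGFBR1 in turn phosphorylates SMAD2 and SMAD3. TGFBR3, also called betaglycan, has no kinase and presents ligand to TGFBR2, above all TGFB2, which binds TGFBR2 weakly by itself. Fibroblasts both make and answer TGF-beta, and the loop is best known from wound repair and fibrosis.

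The values are RPKM, the reads on a transcript divided by its length in kilobases and by the size of the library. RPKM is a scale per length, so levels can be set side by side between genes. Each gene is given by its transcript with the longest gene body, and reads were recovered from RPKM, length and library depth. Brackets hold exact 95% intervals from those reads, which cover counting error only and compare libraries, not conditions. Following the study's own limit, a gene is said to have risen or fallen where its RPKM differed at least 1.5-fold between libraries. Depths were close, between 56140000 and 57300000 mapped reads, and 3 reads on a transcript of 1 kb correspond to 0.0524 to 0.0534 RPKM. In these bulk samples fewer cells of a type and less RNA per cell cannot be told apart.

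The labels were checked on marker genes. Hmga2 had 14.8 RPKM in Hmga2+/+ Ctrl and 40.7 in Hmga2+/+ TGFB1, and 0 reads in both Hmga2-/- libraries, at least 1191-fold and 3298-fold lower against a floor of 3 reads per library. The TGF-beta targets Ccn2 and Smad7 rose in both genotypes, Ccn2 13.1-fold and 14.4-fold and Smad7 1.66-fold and 2.18-fold. Tuba1a, a tubulin gene, fell 1.57-fold in Hmga2+/+ MEF, from 23.2 to 14.8 RPKM, and was at 21.1 and 19.3 RPKM in Hmga2-/- MEF. All 8 fibroblast markers reached 1 RPKM, with a sum of 1943 to 2344 RPKM, whereas 0 of 4 epithelial and 0 of 3 skeletal muscle markers did, with sums of 0.403 to 1.04 and 0 to 0.0520 RPKM. Of 4 endothelial markers only Kdr reached it, at 1.11, 4.46, 1.46 and 7.39 RPKM in Hmga2+/+ Ctrl, Hmga2+/+ TGFB1, Hmga2-/- Ctrl and Hmga2-/- TGFB1, while Pecam1 was at most 0.0300 RPKM and Tie1 at 0. Of 4 macrophage markers only Cd68 reached it, at 1.25 to 1.63 RPKM. The 3 neural markers Map2, Sox2 and Tubb3 all did, with sums of 14.8 to 24.6 RPKM, most of it Map2. Map2 was lower in the TGFB1 libraries, at 18.1, 8.82, 22.6 and 9.20 RPKM in the same order, whereas Tubb3 (0.913, 2.81, 0.957 and 4.37 RPKM) and Sox2 (1.99, 3.20, 1.04 and 1.37 RPKM) were higher there within each genotype. The part of these genes in the results below was not tested.

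The sequences upstream of Ltbp2, which rose most, of Tgfb2, which fell in both genotypes, and of both start sites of Ltbp1, whose forms are compared below, are shown first. They are the 250 bases before the RefSeq start site, on the strand of the gene, from build GRCm38.p6. Capitals mark the motifs searched, on either strand: CAGAC (the SMAD box, GTCTG on the other strand), GGGCGG (an SP1 box, CCGCCC on the other strand) and TATAAA (the TATA box), besides GTCTAGAC (a SMAD palindrome) and TGANTCA (the AP-1 site). The Ltbp2 window is chr12:84876492-84876741 on the minus strand, the Tgfb2 window chr1:186705990-186706239 on the minus strand, and the Ltbp1 windows are chr17:75005279-75005528 and chr17:75178531-75178780, both on the plus strand.
Ltbp2: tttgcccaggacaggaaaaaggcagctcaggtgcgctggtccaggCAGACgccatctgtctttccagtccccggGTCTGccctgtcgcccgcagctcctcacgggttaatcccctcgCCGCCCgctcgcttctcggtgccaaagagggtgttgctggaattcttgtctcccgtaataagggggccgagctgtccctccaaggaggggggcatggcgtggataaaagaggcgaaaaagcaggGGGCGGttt
Tgfb2: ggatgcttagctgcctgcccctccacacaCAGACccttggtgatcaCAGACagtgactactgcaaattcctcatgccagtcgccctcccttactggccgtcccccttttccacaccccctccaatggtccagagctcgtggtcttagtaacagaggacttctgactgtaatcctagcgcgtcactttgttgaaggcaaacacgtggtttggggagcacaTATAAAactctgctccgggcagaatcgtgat
Ltbp1 long form: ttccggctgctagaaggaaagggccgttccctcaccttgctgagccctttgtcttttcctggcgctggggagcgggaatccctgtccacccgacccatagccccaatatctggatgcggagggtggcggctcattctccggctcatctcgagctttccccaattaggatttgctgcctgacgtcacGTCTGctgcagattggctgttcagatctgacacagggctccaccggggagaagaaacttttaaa
Ltbp1 short form: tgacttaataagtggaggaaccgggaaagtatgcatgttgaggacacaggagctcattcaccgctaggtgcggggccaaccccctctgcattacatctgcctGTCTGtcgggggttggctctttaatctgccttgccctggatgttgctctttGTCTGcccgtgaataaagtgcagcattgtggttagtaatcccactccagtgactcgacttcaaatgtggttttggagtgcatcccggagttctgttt
The Ltbp2 window holds 2 CAGAC and 2 GGGCGG and has 61.6% G and C, and the Tgfb2 window holds 2 CAGAC and 1 TATAAA near its end and has 53.6%. In front of the long and the short form of Ltbp1 there are 1 and 2 CAGAC, with 56.8% and 50.8% G and C.

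RefSeq windows were at hand for 8 of the 10 genes, 12 windows in all, and not for Tgfb3 and Tgfbr3. CAGAC occurred in 7 of the 12 windows and in 42.2% of all 32851 windows of 27025 genes, and GGGCGG in 6 of 12 and in 32.7% of all. The windows are not all separate. Those of Ltbp4 begin at 27333649, 27333664 and 27337613 on chr7 and all hold GGGCGG. Those at 27333649 and 27333664 share most of their bases. TATAAA stood in 1 of the 12, that of Tgfb2, and in 12.4% of all. GTCTAGAC and TGANTCA stood in 0 of 12, and in 0.167% and 6.75% of all windows. The Tgfb1 window (chr7:25686752-25687001, plus strand) has 5 GGGCGG, 0 CAGAC and 75.2% G and C, beside a median of 52.4% over all windows. A match of letters is a description and not a binding site.

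All 10 genes were expressed in all 4 libraries, at 2.27 to 93.5 RPKM, and 6 of them at 10 RPKM or more throughout. TGFB1 treatment went with higher transcript levels of Tgfb1, Tgfb3, Tgfbr1 and Ltbp2 and lower levels of Tgfb2 and Tgfbr3, by at least 1.5-fold, and the same genes made up these calls in both genotypes. In Hmga2+/+ MEF 4 of the 10 rose, against 11.4% of the 10737 protein-coding genes that reached 1 RPKM in any library, and 2 fell, against 16.8%. In Hmga2-/- MEF 4 rose and 2 fell as well, against 13.1% and 15.1% of all. Calls shared by both genotypes were common among all 10737 genes too. The limit was passed upward by 1229 genes in the wild type, of which 1034 passed it upward in both genotypes. For downward calls these numbers were 1802 and 1359. The median log2 change of the 10 genes was 0.21 in Hmga2+/+ and 0.40 in Hmga2-/- MEF, beside -0.05 and 0.01 over all 10737 genes. Because the 10 genes were chosen with earlier results of these data known, these counts and medians are a description.

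**Figure D1:**
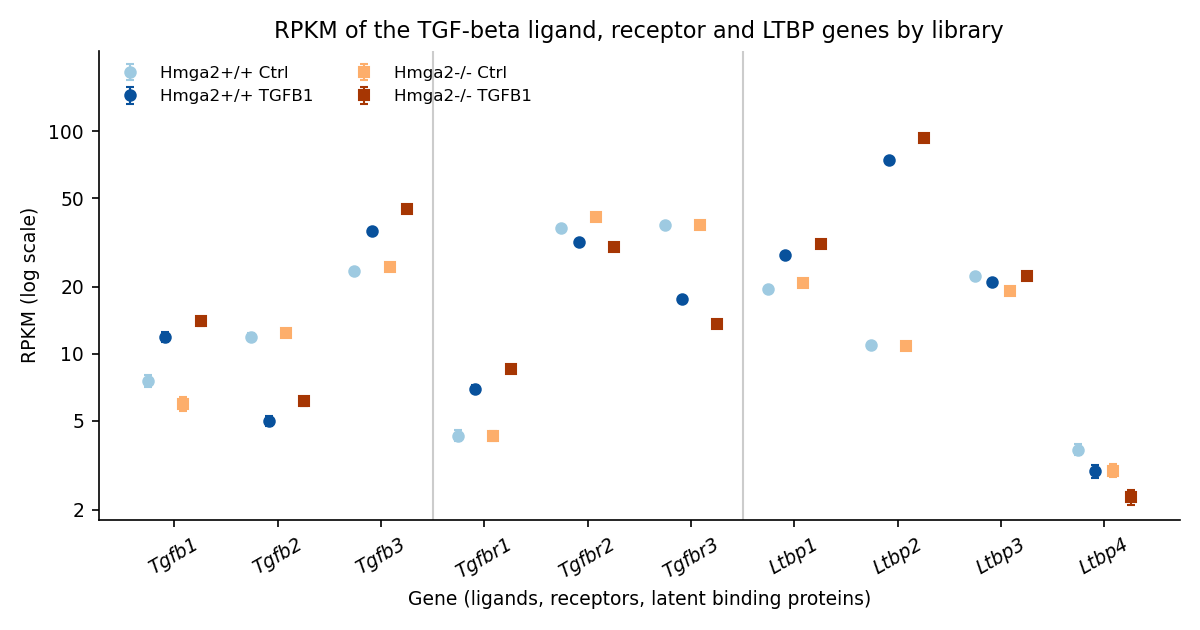
RPKM (log axis) of the 10 genes in the 4 libraries, 1 library per condition; bars are 95% counting intervals and are mostly shorter than the symbols. Ltbp2 stands near 11 RPKM in both Ctrl libraries and at 74.1 and 93.5 RPKM in the TGFB1 libraries, while Tgfb2 and Tgfbr3 stand lower in both TGFB1 libraries.

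Among the ligands, the levels of Tgfb1 and Tgfb3 on the one hand and of Tgfb2 on the other moved in opposite directions. Tgfb1 (uc009ftq.2, chr7:25687002-25705077, plus strand, mm10), the ligand that was also added to the medium as protein, had 7.56 RPKM in Hmga2+/+ Ctrl, 11.9 in Hmga2+/+ TGFB1, 5.97 in Hmga2-/- Ctrl and 14.0 in Hmga2-/- TGFB1, from 918, 1478, 731 and 1726 reads. Both TGFB1 libraries lay above both Ctrl libraries, and the Hmga2-/- pair enclosed the Hmga2+/+ pair. The rise was 1.58-fold (log2 0.66 [0.54 to 0.78]) in Hmga2+/+ and 2.35-fold (log2 1.23 [1.11 to 1.36]) in Hmga2-/- MEF, and 1047 and 373 of the 10737 genes had a larger upward change. Since the added TGFB1 was a protein, these reads come from the RNA of the cells themselves.

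Tgfb3 (uc007ohn.2, chr12:86056743-86079041, minus strand), the ligand with the highest RPKM in every library, had 23.5 and 35.8 RPKM in Hmga2+/+ Ctrl and TGFB1 and 24.5 and 45.0 RPKM in Hmga2-/- Ctrl and TGFB1. The Ctrl libraries were close to each other and below both TGFB1 libraries. It rose 1.52-fold (log2 0.60 [0.55 to 0.66]) in Hmga2+/+ and 1.83-fold (log2 0.88 [0.82 to 0.93]) in Hmga2-/- MEF. The lower end of the Hmga2+/+ interval lies below the log2 of 0.58 that 1.5-fold corresponds to.

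Tgfb2 (uc007dzp.2, chr1:186623186-186705992, minus strand), the isoform that depends most on betaglycan, had 11.9 and 5.01 RPKM in Hmga2+/+ Ctrl and TGFB1 and 12.4 and 6.14 RPKM in Hmga2-/- Ctrl and TGFB1, from 3211, 1377, 3378 and 1675 reads. Both treated libraries lay well below both Ctrl libraries, and Hmga2-/- TGFB1 lay above Hmga2+/+ TGFB1. It fell 2.38-fold (log2 -1.25 [-1.34 to -1.16]) in Hmga2+/+ and 2.03-fold (log2 -1.02 [-1.11 to -0.94]) in Hmga2-/- MEF, and only 451 and 692 of the 10737 genes had a more negative change. Its other transcript in the table, which has the same ends and 4712 in place of 4794 bases, gave log2 changes of -1.27 and -1.03.

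Since 2 ligands rose and 1 fell, the make-up of the ligand RNA shifted along with its sum. The RPKM of the 3 ligands summed to 43.0 in both Ctrl libraries, to 52.7 in Hmga2+/+ TGFB1 and to 65.2 in Hmga2-/- TGFB1. Tgfb3 made up 54.7% and 57.1% of the sum in the Hmga2+/+ and Hmga2-/- Ctrl libraries and 67.9% and 69.1% in the TGFB1 libraries. The share of Tgfb2 was 27.7% and 29.0% in the Ctrl libraries and 9.51% and 9.41% in the TGFB1 libraries, so that the ratio of Tgfb3 to Tgfb2 went from 1.97 in both Ctrl libraries to 7.14 in Hmga2+/+ TGFB1 and 7.34 in Hmga2-/- TGFB1. Tgfb1 stood below Tgfb2 in both Ctrl libraries, at ratios of 0.634 and 0.480, and above it in both TGFB1 libraries, at 2.38 and 2.28.

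Among the receptors, the type I kinase rose, the accessory receptor fell and the type II kinase stayed within the 1.5-fold limit. Tgfbr1 (uc008sun.2, chr4:47353222-47414924, plus strand) had 4.30 and 6.95 RPKM in Hmga2+/+ Ctrl and TGFB1 and 4.29 and 8.57 RPKM in Hmga2-/- Ctrl and TGFB1. The Ctrl libraries of the genotypes were alike within counting error, and both treated libraries were higher. The rise was 1.61-fold (log2 0.69 [0.59 to 0.79]) in Hmga2+/+ and 2.0-fold (log2 1.00 [0.91 to 1.09]) in Hmga2-/- MEF.

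Tgfbr2 (uc009rys.2, chr9:116087695-116175363, minus strand), the ligand-binding kinase, had 36.6 and 31.8 RPKM in Hmga2+/+ Ctrl and TGFB1 and 41.1 and 30.1 RPKM in Hmga2-/- Ctrl and TGFB1. Both treated libraries were below both Ctrl libraries, with log2 changes of -0.20 [-0.24 to -0.16] in Hmga2+/+ and -0.45 [-0.49 to -0.40] in Hmga2-/- MEF, neither of which reaches 1.5-fold.

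Tgfbr3 (uc008ylz.2, chr5:107106570-107289595, minus strand), which encodes betaglycan, had 38.1 RPKM in both Ctrl libraries, 17.6 in Hmga2+/+ TGFB1 and 13.7 in Hmga2-/- TGFB1, from 12893, 12976, 6056 and 4712 reads. It was the member with the highest RPKM in Hmga2+/+ Ctrl and stood in sixth place in Hmga2+/+ TGFB1. The fall was 2.17-fold (log2 -1.12 [-1.16 to -1.08]) in Hmga2+/+ and 2.77-fold (log2 -1.47 [-1.52 to -1.42]) in Hmga2-/- MEF, with 585 and 331 of the 10737 genes changing further downward. Tgfbr3 and the ligand Tgfb2 were the only members that fell by the 1.5-fold limit, while Tgfbr2 and Ltbp4 were lower by less in both genotypes. A link between the falls of Tgfbr3 and Tgfb2 was not tested.

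The receptor RPKM summed to 79.1 and 83.4 in the Hmga2+/+ and Hmga2-/- Ctrl libraries and to 56.3 and 52.5 in the TGFB1 libraries. Tgfbr2 stood 8.51 and 9.58 times above Tgfbr1 in the Ctrl libraries of Hmga2+/+ and Hmga2-/- MEF and 4.58 and 3.52 times above it in the TGFB1 libraries. The share of Tgfbr1 among the 3 receptors was 5.44% and 5.14% in the Ctrl libraries and 12.3% and 16.3% in the TGFB1 libraries. Tgfbr3 was about level with Tgfbr2 in the Ctrl libraries, at ratios of 1.04 and 0.927, and stood at 0.552 and 0.456 of it after treatment.

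**Figure D2:**
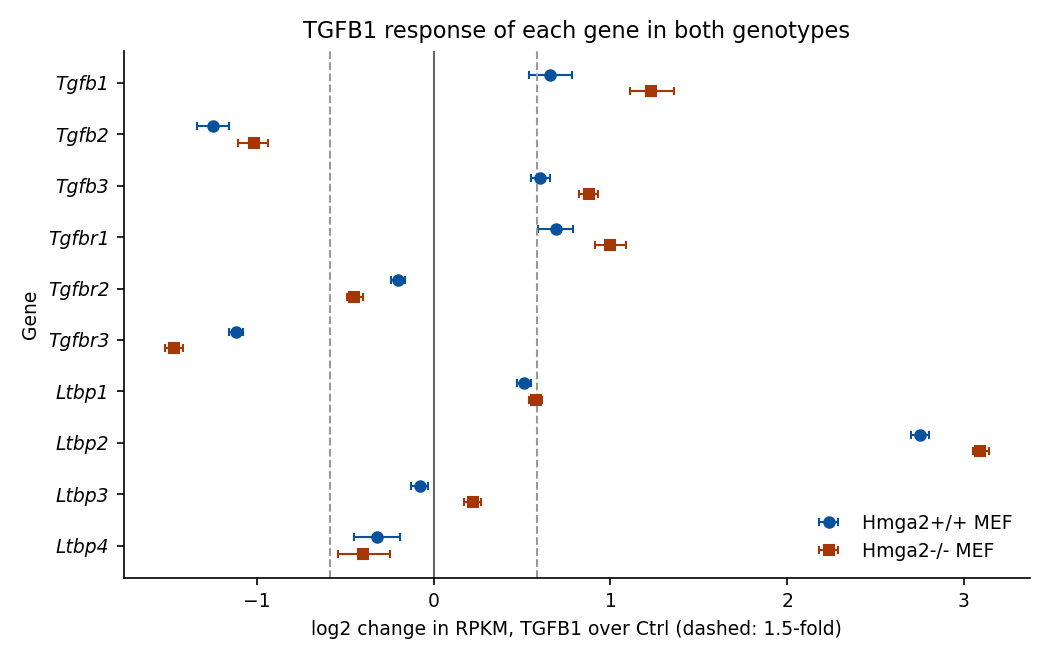
log2 change in RPKM from Ctrl to TGFB1 for each gene, in Hmga2+/+ (circles) and Hmga2-/- (squares) MEF, with 95% counting intervals and dashed lines at 1.5-fold. Ltbp2 lies at 2.75 and 3.09, Tgfb2 and Tgfbr3 lie left of the lower line, and Ltbp3 lies on either side of 0.

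The latent binding proteins held the widest range of changes. Ltbp2 (uc011ypd.1, chr12:84783212-84876495, minus strand), a matrix protein of elastic fibres that, unlike its relatives, does not bind latent TGF-beta, had 11.0 and 74.1 RPKM in Hmga2+/+ Ctrl and TGFB1 and 10.9 and 93.5 RPKM in Hmga2-/- Ctrl and TGFB1, from 4033, 27741, 4047 and 34768 reads. The Ctrl libraries were equal within counting error, and both treated libraries stood far above them. It rose 6.74-fold (log2 2.75 [2.70 to 2.80]) in Hmga2+/+ and 8.54-fold (log2 3.09 [3.05 to 3.14]) in Hmga2-/- MEF, and 72 and 57 of the 10737 genes had a larger change. Ltbp2 was in seventh place by RPKM among the 10 genes in both Ctrl libraries and in first place in both TGFB1 libraries.

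Ltbp1 (uc008dom.2, chr17:75005529-75392967, plus strand), which binds the latent complexes of all TGF-beta ligands, had 19.5 and 27.7 RPKM in Hmga2+/+ Ctrl and TGFB1 and 20.9 and 31.1 RPKM in Hmga2-/- Ctrl and TGFB1. Both treated libraries were higher than both Ctrl libraries, by log2 changes of 0.51 [0.47 to 0.55], which is 1.42-fold, and 0.58 [0.54 to 0.61], which is 1.49-fold and just under the limit. Ltbp3 (uc008gff.1, chr19:5740904-5758532, plus strand), another carrier of latent TGF-beta, had 22.3 and 21.1 RPKM in Hmga2+/+ Ctrl and TGFB1 and 19.2 and 22.4 RPKM in Hmga2-/- Ctrl and TGFB1. The 4 values lay close together, with no separation of treated from Ctrl libraries, and the log2 changes were -0.08 [-0.13 to -0.03] and 0.22 [0.17 to 0.27]. Ltbp4 (uc009fvt.2, chr7:27305141-27337612, minus strand), which binds latent TGFB1 and takes part in elastic fibre assembly, had the lowest RPKM of the 10 genes in every library, at 3.72 and 2.97 in Hmga2+/+ Ctrl and TGFB1 and 2.99 and 2.27 in Hmga2-/- Ctrl and TGFB1. The log2 changes were -0.32 [-0.45 to -0.19] and -0.40 [-0.54 to -0.25], short of 1.5-fold in both genotypes.

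The 4 LTBP genes summed to 56.5 and 54.0 RPKM in the Hmga2+/+ and Hmga2-/- Ctrl libraries and to 126 and 149 RPKM in the TGFB1 libraries. Ltbp2, which does not bind latent TGF-beta, made up 19.5% and 20.3% of the sum in the Ctrl libraries and 58.9% and 62.6% in the TGFB1 libraries. Ltbp3, which had the largest share in Hmga2+/+ Ctrl with 39.5%, had 16.8% after treatment, and in Hmga2-/- MEF its share was 35.6% and 15.0%. The ratio of Ltbp2 to Ltbp1 was 0.564 and 0.524 in the Ctrl libraries and 2.68 and 3.0 in the TGFB1 libraries.

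**Figure D3:**
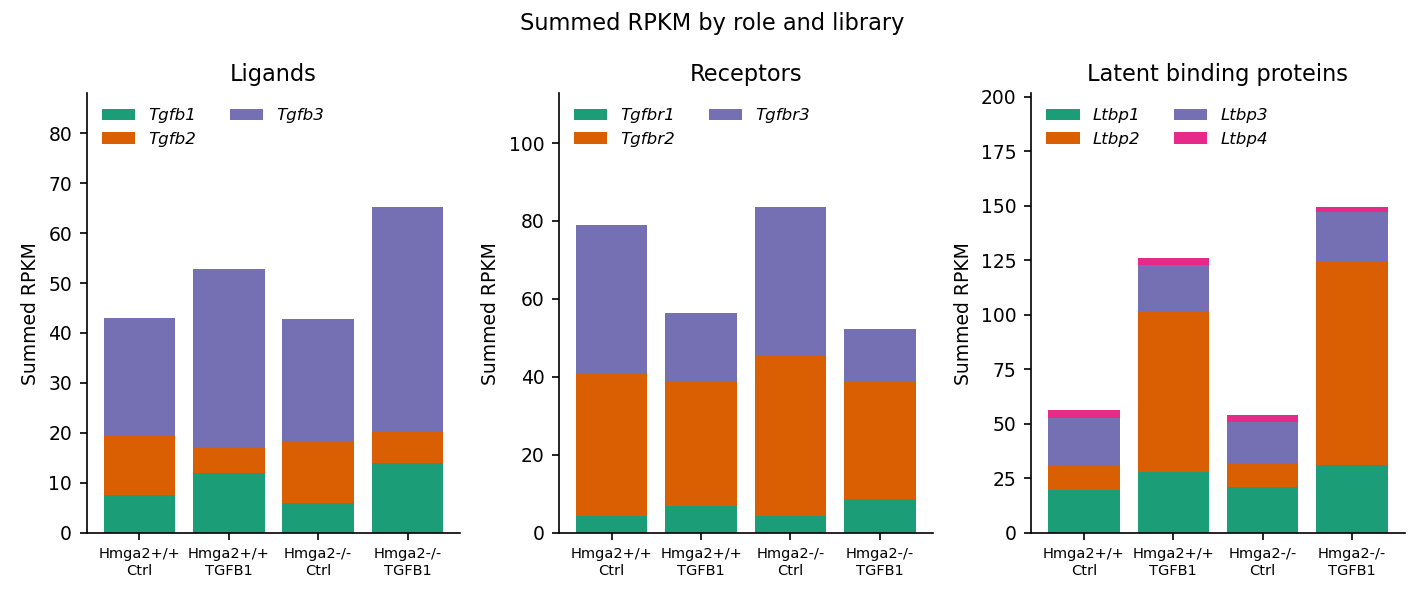
Summed RPKM of the ligands, the receptors and the latent binding proteins in each library, with the genes stacked. The LTBP sum goes from 56.5 to 126 and from 54.0 to 149 RPKM, mostly through Ltbp2 and to a lesser extent through Ltbp1. The receptor sum is lower in both TGFB1 libraries, with less Tgfbr3 and less Tgfbr2.

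In the order of RPKM, few neighbours could not be told apart by counting error. In Hmga2+/+ Ctrl the order from the top was Tgfbr3, Tgfbr2, Tgfb3, Ltbp3, Ltbp1, Tgfb2, Ltbp2, Tgfb1, Tgfbr1 and Ltbp4, and only the counting intervals of Tgfb3 and Ltbp3 overlapped. Hmga2-/- Ctrl had the same order but for exchanges of Tgfbr3 with Tgfbr2 and of Ltbp3 with Ltbp1. In Hmga2+/+ TGFB1 the order was Ltbp2, Tgfb3, Tgfbr2, Ltbp1, Ltbp3, Tgfbr3, Tgfb1, Tgfbr1, Tgfb2 and Ltbp4. Hmga2-/- TGFB1 differed from it in the place of Ltbp1 above Tgfbr2 and of Tgfb1 above Tgfbr3, and the intervals of both of these pairs overlapped. Whether neighbours differ beyond the spread between cultures is unknown, since that spread was not measured.

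Hmga2-/- and Hmga2+/+ MEF differed little in these genes, always by less than 1.5-fold. Few of all genes passed that limit in this comparison or in those that follow, so this sets no member apart. The genotypes are also separate immortalized lines, so loss of Hmga2 and other differences between the lines cannot be told apart. Between the Ctrl libraries 0 of the 10 genes were at least 1.5-fold higher in Hmga2-/- MEF and 0 lower, against 2.37% and 1.64% of all 10737 genes. The log2 differences ran from -0.34 [-0.48 to -0.20] for Tgfb1 to 0.16 [0.13 to 0.20] for Tgfbr2, and the counting intervals of 4 genes (Tgfb2, Tgfbr1, Tgfbr3 and Ltbp2) included 0. For Ltbp2 the difference was -0.01 [-0.07 to 0.06] and for Tgfbr3 0.00 [-0.04 to 0.03]. Ltbp3 and Ltbp4 were lower in Hmga2-/- Ctrl by 0.22 and 0.31 on the log2 scale (-0.22 [-0.27 to -0.16] and -0.31 [-0.44 to -0.18]).

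Between the TGFB1 libraries 0 of 10 genes were at least 1.5-fold higher in Hmga2-/- MEF, against 3.11% of all genes, and 0 were lower, against 1.98%. The 5 members with positive log2 changes in both genotypes were all higher in the Hmga2-/- library: Tgfb1 by 0.23 [0.13 to 0.33], Tgfb3 by 0.33 [0.29 to 0.38], Tgfbr1 by 0.30 [0.22 to 0.38], Ltbp1 by 0.17 [0.13 to 0.20] and Ltbp2 by 0.33 [0.31 to 0.36] on the log2 scale. Tgfbr3 was lower there (-0.35 [-0.41 to -0.30]), as was Ltbp4 (-0.39 [-0.54 to -0.24]), and Tgfb2 was higher (0.29 [0.19 to 0.40]). The 5 members were picked by changes that use these same libraries, so their common direction is no separate result. Of the 10 genes 7 were higher in the Hmga2-/- library, beside 58.6% of all genes. The median over the 10 genes was 0.20, beside 0.04 over all genes.

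Whether the response itself differed was read from the ratio of both responses, which shares its 4 libraries with the comparisons above and is therefore no independent measure. No member had a response that differed at least 1.5-fold between genotypes: 0 of 10 were higher in Hmga2-/- MEF, against 2.05% of all genes, and 0 lower, against 1.5%. Tgfb1 came closest, with a response 1.49-fold larger in Hmga2-/- MEF (log2 0.57 [0.40 to 0.75]), through a lower Ctrl value as well as a higher treated value. The difference was 0.34 [0.27 to 0.41] for Ltbp2, 0.31 [0.17 to 0.44] for Tgfbr1, 0.30 [0.23 to 0.38] for Ltbp3, 0.27 [0.20 to 0.35] for Tgfb3 and 0.23 [0.11 to 0.36] for Tgfb2. For Tgfbr3 it was -0.35 [-0.42 to -0.28] and for Tgfbr2 -0.24 [-0.30 to -0.18]. The Ltbp1 difference was 0.07 [0.01 to 0.12], and only that of Ltbp4, -0.08 [-0.27 to 0.12], had a counting interval that included 0.

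All 4 members that rose did so further in Hmga2-/- than in Hmga2+/+ MEF, and of the 2 that fell Tgfbr3 fell further and Tgfb2 less far. Over all genes that rose in both genotypes, 596 of 1034 (57.6%) rose further in Hmga2-/- MEF, and of those that fell in both, 694 of 1359 (51.1%) fell further. The difference was positive in 7 of the 10 genes and in 59.4% of all genes. In no member was a TGFB1 rise of at least 1.5-fold in Hmga2+/+ MEF absent from the Hmga2-/- libraries. Most genes with an upward call in the wild type, 1034 of 1229, had that call in both genotypes, so this sets no member apart.

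The 16 other transcripts of these genes in the table gave the same call as the reported one in Hmga2+/+ MEF, and 3 gave another in Hmga2-/- MEF. These were the transcripts uc008don.2 and uc008doo.2 of Ltbp1, with log2 changes of 0.62 and 0.60, just over the limit, and uc057cel.1, a fragment of 2248 bases inside Tgfbr2, with -0.63. No transcript of another gene on the same strand overlaps the 10 genes. Ltbp2 showed its rise over its whole length: uc011ypc.1, which covers the 3′ part, had 12.0, 79.5, 12.0 and 102 RPKM in Hmga2+/+ Ctrl, Hmga2+/+ TGFB1, Hmga2-/- Ctrl and Hmga2-/- TGFB1, and uc007ofx.1, which covers the 5′ part, had 6.44, 42.4, 6.48 and 52.7 RPKM.

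A short transcript of Tgfbr3, uc008yma.2, of 1355 bases from the 5′ part of the gene, was the only other transcript whose response differed at least 1.5-fold between genotypes. It had 54.1 and 27.5 RPKM in Hmga2+/+ Ctrl and TGFB1 and 61.3 and 20.0 RPKM in Hmga2-/- Ctrl and TGFB1. On the log2 scale the changes were -0.98 for Hmga2+/+ and -1.61 for Hmga2-/-, a difference of -0.64, beside -0.35 for the full transcript.

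Ltbp1 has a long and a short form that start at separate sites, the upstream sequences of which are given above. GENCODE places 4 exons of the long form before the start of the short form, with 1327 bases that only the long form holds, and gives the short form 227 first bases of its own. The long transcript (7843 bases) and the short one (uc008doo.2, 6712 bases) differ by 1131 bases, 14.4% of the long form, and share most of their other exonic bases. The long transcript had 303 more reads than the short one in Hmga2+/+ Ctrl, 232 in Hmga2+/+ TGFB1, 294 in Hmga2-/- Ctrl and 178 in Hmga2-/- TGFB1. These net reads were 3.53% and 3.17% of the long transcript's reads in the Ctrl libraries and 1.87% and 1.28% in the TGFB1 libraries. They were thus lower in both treated libraries than in both Ctrl libraries, while the reads of the whole transcript went from 8576 to 12439 in Hmga2+/+ and from 9268 to 13897 in Hmga2-/- MEF. A net number is in the main the reads on the long form's own bases less those on the short form's own bases, so which of these moved cannot be told apart, and it carries no interval. This comparison of forms was chosen after the values were seen.

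**Figure D4:**
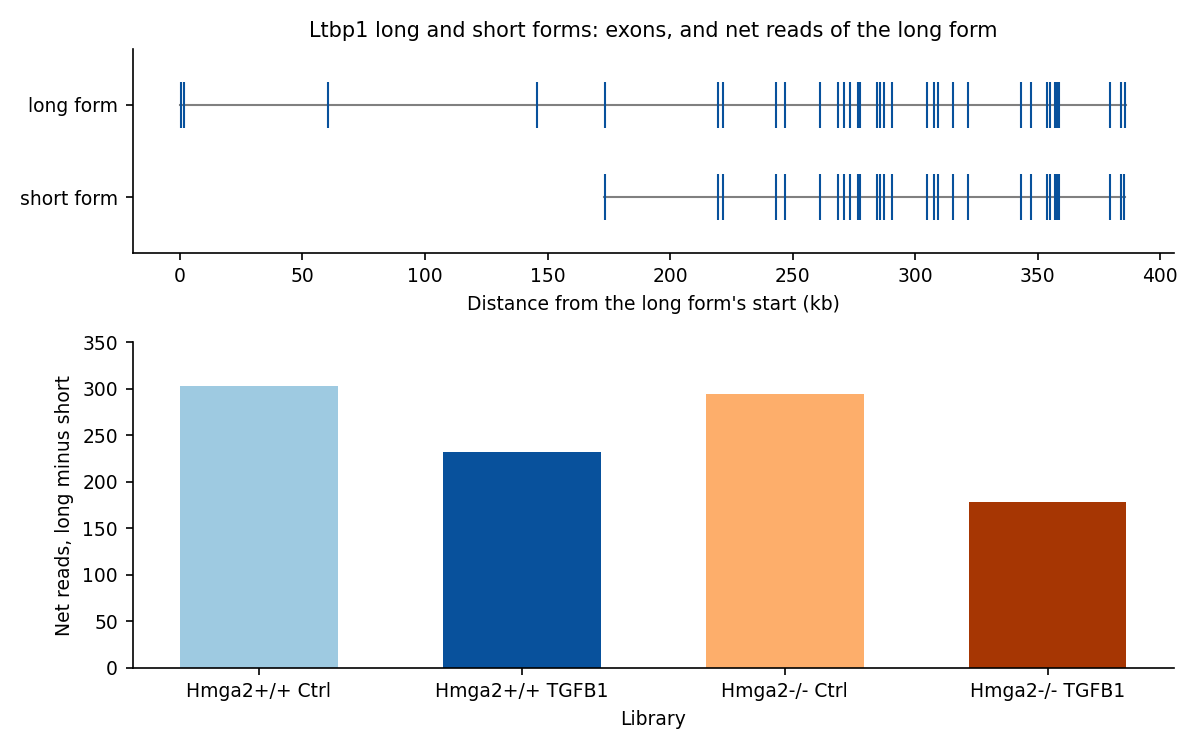
Above, GENCODE exons of the long and short forms of Ltbp1 by distance in kb from the start of the long form; each exon is a line at its middle and exon widths are not drawn. Below, reads of the long transcript less those of the short one in each library, 303 and 294 in the Ctrl libraries and 232 and 178 in the TGFB1 libraries.

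Around the 10 genes, the activators and matrix partners of latent TGF-beta rose more often than they fell with TGFB1. This list and that of the co-receptors below were chosen with earlier results of these data known, so their counts are a description. Of 23 genes listed, 20 reached 1 RPKM, and 11 of these rose in Hmga2+/+ MEF, against 11.4% of all genes, while 4 fell, against 16.8%. The median log2 change was 0.62, beside -0.05 over all genes. In Hmga2-/- MEF 11 of the 20 rose, against 13.1%, and 5 fell, against 15.1%, with a median of 0.82, beside 0.01. Those that rose in both genotypes include Itgav, the alpha chain of the integrins that pull latent TGF-beta open, which had 27.5 and 60.2 RPKM in Hmga2+/+ Ctrl and TGFB1 and 26.2 and 75.1 RPKM in Hmga2-/- Ctrl and TGFB1. The beta chains Itgb1 (155 to 285 and 160.1 to 340.2 RPKM), Itgb3 (0.889 to 2.18 and 0.925 to 2.55 RPKM) and Itgb5 (20.1 to 31.3 and 21.1 to 39.0 RPKM) rose with it. Integrin genes as a group did not all rise, since Itgb8, another beta chain that activates latent TGF-beta, had 4.50 and 3.89 RPKM in Hmga2+/+ MEF and fell from 4.15 to 2.14 RPKM in Hmga2-/- MEF, and Itgb6 stayed at or below 0.0150 RPKM.

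Thbs1, an activator of latent TGF-beta, rose 2.25-fold in Hmga2+/+ MEF, from 97.4 to 219 RPKM, and 2.83-fold in Hmga2-/- MEF, from 141 to 398 RPKM. Furin, the protease that cleaves the TGF-beta precursor, rose from 7.75 to 11.8 and from 6.78 to 14.4 RPKM, and Lrrc32, a cell-surface anchor of latent TGF-beta, from 3.19 to 5.23 and from 4.13 to 7.73 RPKM. Fbn1, the fibrillin that holds LTBPs in microfibrils, rose from 66.6 to 158 and from 74.0 to 146 RPKM, and Plat, a plasminogen activator, from 9.56 to 16.9 and from 7.67 to 12.8 RPKM. The small proteoglycans that bind TGF-beta did not move as 1 group. Bgn, the gene of the list with the highest level, rose from 294 to 681 and from 304 to 760.5 RPKM, and Fmod from 3.11 to 14.0 and from 4.04 to 17.4 RPKM, whereas Dcn fell from 7.20 to 2.68 and from 8.46 to 2.07 RPKM. The protease Mmp14 (193 to 121 and 211 to 131 RPKM), Emilin1 (17.8 to 9.95 and 15.8 to 8.96 RPKM), which holds back processing of the TGF-beta precursor, and Tgfbi (23.0 to 14.2 and 29.2 to 14.6 RPKM), a matrix protein named for its induction by TGF-beta, fell in both genotypes.

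Of the 22 co-receptors and receptor-associated genes listed, 19 reached 1 RPKM, and 9 of these rose and 1 fell in Hmga2+/+ MEF, against 11.4% and 16.8% of all genes, with a median log2 change of 0.46 beside -0.05. In Hmga2-/- MEF 7 rose and 1 fell, against 13.1% and 15.1%, with a median of 0.42 beside 0.01. Pmepa1, a feedback inhibitor that sequesters receptor-activated SMADs, rose most, from 17.4 to 113 and from 19.7 to 143 RPKM. The BMP receptors Acvr1 (7.59 to 12.9 and 7.18 to 13.4 RPKM) and Bmpr2 (16.6 to 29.3 and 16.4 to 26.5 RPKM) rose in both genotypes. So did Smurf1 (6.51 to 11.1 and 6.64 to 12.1 RPKM), a ubiquitin ligase that acts on the receptors, Cav1 (42.7 to 82.3 and 65.8 to 129.7 RPKM), the caveolin of receptor internalization, Strap (34.1 to 51.7 and 34.4 to 53.6 RPKM) and Fkbp1a (17.1 to 26.4 and 16.7 to 30.9 RPKM), which binds the type I receptor. Dab2, an endocytic adaptor of the receptors, was the gene of this list that fell, to 17.8 RPKM in Hmga2+/+ TGFB1 (1.69-fold) and 17.3 RPKM in Hmga2-/- TGFB1 (2.05-fold). Smurf2 (13.6 to 20.9 RPKM) and Nrp2 (24.8 to 37.5 RPKM) rose in Hmga2+/+ MEF by 1.53-fold and 1.52-fold and had 1.42-fold and 1.30-fold in Hmga2-/- MEF. The endothelial receptor genes Eng and Acvrl1 had at most 0.401 and 0.573 RPKM, and Lrg1 was at 0 in all 4 libraries.

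Between genotypes the lists held few differences, as did all genes, of which 1.5% to 3.11% passed 1.5-fold in each direction of these comparisons. Between the Ctrl libraries 0 of 20 activators and matrix partners passed it. Of the 19 co-receptors and receptor-associated genes only Cav1 did, 1.54-fold higher in Hmga2-/- MEF. Between the TGFB1 libraries Thbs1 (1.81-fold) and Cav1 (1.58-fold) were higher in Hmga2-/- MEF and Itgb8 was 1.82-fold lower. The response differed at least 1.5-fold in Itgb8 (log2 -0.75) and Dcn (log2 -0.60), both lower in Hmga2-/- MEF. It did so in 0 of the 19 co-receptors and receptor-associated genes. Itgb8, Smurf2, Nrp2, Itgb6, Eng, Acvrl1 and Lrg1 were chosen for naming after their values were seen.

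**Figure D5:**
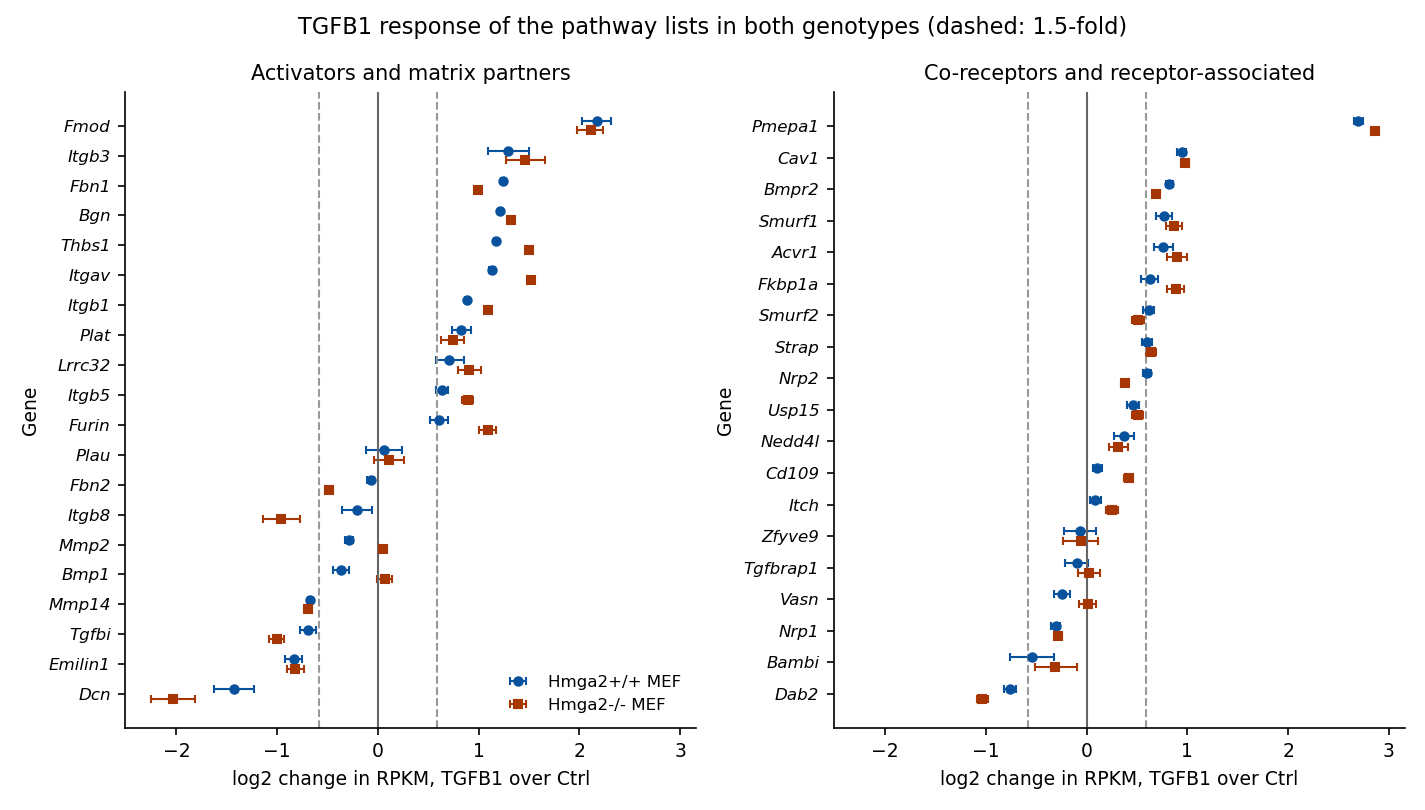
log2 change in RPKM from Ctrl to TGFB1 for the 20 activators and matrix partners and the 19 co-receptors and receptor-associated genes that reached 1 RPKM, in Hmga2+/+ (circles) and Hmga2-/- (squares) MEF, with 95% counting intervals and dashed lines at 1.5-fold. Fmod, with 2.17 and 2.11, and Pmepa1, with 2.69 and 2.86, lie at the upper ends, and Dcn, with -1.43 and -2.03, at the lower end.

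For the member with the largest single log2 change in each role, taken over both genotypes (Tgfb2 with -1.25 in Hmga2+/+ MEF, ahead of Tgfb1 with 1.23 in Hmga2-/- MEF, then Tgfbr3 and Ltbp2), the genes with the most similar course over the 4 libraries were looked for among 9744 protein-coding genes with at least 1 RPKM in all of them, by the Euclidean distance of centred log2 RPKM. With 4 libraries many genes share a course, and the distances are a description. Ltbp2 was nearest to Pmepa1 (distance 0.195), Ccn4 (0.197) and Pdgfc (0.210), with a median distance of 2.94 over all genes. Ccn4, a matricellular protein, had 6.31, 36.4, 6.08 and 54.7 RPKM in Hmga2+/+ Ctrl, Hmga2+/+ TGFB1, Hmga2-/- Ctrl and Hmga2-/- TGFB1, and Pdgfc, a growth factor of mesenchymal cells, had 3.03, 21.6, 3.64 and 29.5 RPKM. Tgfb2 was nearest to Gulp1 (0.048), an adaptor of engulfment receptors with 23.3, 9.56, 24.5 and 11.6 RPKM, then to Cyp39a1 (0.084) and 2510009E07Rik (0.094), with a median of 1.17. Tgfbr3 was nearest to Phyh (0.053), a peroxisomal hydroxylase with 11.1, 5.19, 10.7 and 3.92 RPKM, and to Auh and Fam13c (0.089 each), with a median of 1.34.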

How the data were processed

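The RNA-seq libraries of this study are strand-specific, of total RNA, with 1 library for each combination of Hmga2 genotype and treatment. After trimming with trimmomatic, the authors aligned reads to mm10 by HISAT2 2.1.0 and quantified UCSC known genes with HOMER, and deposited RPKM values with 3 decimals and transcript lengths in bases. The file header names exons as the counted feature and the methods name genes. The study's methods speak of sequencing in duplicates of 1 experiment, while the table used here has 1 column per condition, and whether a column pools duplicates is not given in the sources used here. Total RNA keeps unspliced transcripts, and reads shared by transcripts count for each of them.

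Depth was derived from RPKM as the number of mapped reads at which low values of transcripts under 600 bases give whole reads, within 0.1 of a read for 100.0% of 1211 to 1265 values per library. The derived reads gave exact 95% intervals (Clopper-Pearson for ratios, conditional odds ratio for the difference of responses, Poisson for levels), which cover counting error only. No count test was run. Values of 0 RPKM were set to 0.001. A transcript took the name of the GENCODE vM21 gene that covers 50% or more of it in the same orientation, which gave names to 57708 of 63759 (90.5%). Promoter windows came from RefSeq, GRCm38.p6. Python 3.11.15, numpy 2.4.6, pandas 2.3.3, scipy 1.17.1 and matplotlib 3.10.9 were used. The derivation of depth, the 1.5-fold call and the intervals for ratios and for the difference of responses were tried on simulated reads. The other steps were not.

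The 10 genes and both lists were chosen with earlier results of these data known. Named are all members, the genes of each list past 1.5-fold in the same direction in both responses, the 2 genes per list with the highest mean RPKM, check genes (of which 1 is not reported here), and the 3 genes nearest in course to the member with the largest change in either genotype in each role. A few list genes outside this rule are named as such. The settings tried changed the pseudocount, the filter on low RPKM, the scaling, the transcript per gene and the fold limit.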

Additional observations from a re-analysis of the deposited data

Results flagged for a closer look

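Ltbp3 had log2 changes on TGFB1 treatment of opposite sign in both genotypes, -0.08 in Hmga2+/+ and 0.22 in Hmga2-/- MEF. Both changes are below 1.5-fold and rest on 1 library per condition, and the difference between the genotypes was not tested across cultures.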

How the results depend on the processing

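No paired analysis was possible because each condition holds a single library, and no replicate could be left out. Of 350 log2 values of single genes under other settings, 329 lay within the counting interval of the reported value and 6 changed sign. The 329 include values that could not differ. The filter on low RPKM moved none of its 50 values, since every member passed it. Choosing the transcript with the most exonic bases changed that of Ltbp3 only, and Tgfb1 and Tgfb3 have 1 transcript each. All 6 belong to the comparison of the Ctrl libraries, where Tgfbr1, Tgfbr3 and Ltbp2 lay within 0.01 of 0 as reported, and Tgfbr3 went to 0.18 with the transcript of highest mean RPKM. In Hmga2+/+ MEF, 2 genes rose in place of 4 with a pseudocount of 1 RPKM, since Tgfb3 and Tgfbr1 came just under 1.5-fold. With a fold limit of 2, 1 gene rose in Hmga2+/+ (Ltbp2) and 2 in Hmga2-/- MEF (Tgfb1 and Ltbp2). Tgfbr1 lay just under that limit in Hmga2-/- MEF, with a log2 change of 0.999. With the transcript of highest mean RPKM per gene, the response of 1 gene, Tgfbr3, was at least 1.5-fold lower in Hmga2-/- MEF (log2 -0.64). Ltbp1 reached 1.52-fold in Hmga2-/- MEF with that transcript and with the median over transcripts. Rescaling the libraries by the median ratio moved the log2 TGFB1 responses by 0.04 at most and changed no call. The genes had at least 677 reads per library, and the counting interval includes the 1.5-fold limit (log2 0.58) for Tgfb1 and Tgfb3 in Hmga2+/+ MEF, for Ltbp1 in Hmga2-/- MEF and for the Tgfb1 difference of responses. The spread between cultures was not measured.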
